A study of Mus musculus with 12 samples.

Results

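The genes that build cholesterol and fatty acids were examined in MC38 tumors treated with PB-020, an IGF-1R inhibitor, with an anti-PD-1 antibody, or with both. The members are 28 genes chosen by symbol from the table of 18211 mouse genes, and all 28 were present and passed the filter on low counts. MC38 is a mouse colorectal adenocarcinoma line, grown here under the skin of female C57BL/6 mice that were 5 weeks old at purchase. CK mice received the vehicle, PB-020 mice 50 mg/kg of the compound each day by mouth, anti-PD-1 mice 200 μg of the antibody RMP1-14 on days 9, 12, 15 and 18, and PB-020+anti-PD-1 mice both. Each of the 4 groups held 3 tumors, and every host was immunocompetent, so tumor and host transcripts were counted together. In bulk tissue, fewer cells of a type and less RNA per cell cannot be told apart. The protocols do not say that a tumor pools several mice. The p values measure the spread between tumors of the same group. The main fit pooled this spread over all 4 groups, so tumors outside a comparison also bear on its p values.

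Cells make cholesterol from acetyl-CoA through HMG-CoA, mevalonate and farnesyl pyrophosphate to squalene, which is closed into lanosterol and trimmed step by step to cholesterol. Fatty acids are built from the same acetyl-CoA by carboxylation and chain extension, and stearoyl-CoA desaturases then set the double bond of oleate. The transcription factors SREBP-1 and SREBP-2, encoded by Srebf1 and Srebf2, switch on both branches when membrane sterol is low, and Insig1 holds them back when sterol is plentiful. Insulin and IGF signaling through AKT is a known activator of SREBP-1, which makes these genes a readout of interest for an IGF-1R inhibitor.

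The libraries were alike in depth, with 16545394 to 17217035 expected counts each, and member counts ran from 108 for Acss2 to 10650 for Scd2 in a library. A pair of libraries stood apart in markers of host tissue. The tumor CK 3 carried adipocyte transcripts, with a summed level of 306.4 FPKM over the 10 markers against 31.5 to 68.8 in the other 11 tumors, and Adipoq, the adipocyte hormone adiponectin, at 11.6 FPKM against 0 to 1.03. The tumor anti-PD-1 1 carried skeletal muscle transcripts, with 512.0 FPKM over 7 markers against 9.33 to 56.1 elsewhere, and it had the highest summed macrophage level, 1339 against 723.0 to 997.0 FPKM. Of the epithelial markers, Krt8, Krt18, Krt19 and Epcam stayed between 0 and 0.54 FPKM in every tumor, and the 8 markers of that list summed to 2.31 to 4.40 FPKM per tumor, so the labelled adenocarcinoma origin was not visible in them. The summed T cell level was 11.4 to 16.3 FPKM in CK, 16.3 to 20.4 with PB-020, 24.7 to 60.3 with anti-PD-1 and 30.9 to 48.5 with the combination, and 6 of the 7 tested T cell markers rose in each of the antibody-treated groups. The 9 sebaceous and skin markers summed to 79.0 to 117.6, 108.4 to 137.2, 132.6 to 184.2 and 167.0 to 208.6 FPKM in the same order, but only Krt14 of the 5 tested was called, at 0.85 with anti-PD-1 and 1.04 with the combination. Of 6 fibroblast markers, Dcn and Pdgfra fell with anti-PD-1 and with the combination and the other 4 had changes above 0 with no call, while the summed levels overlapped CK. The 8 proliferation markers summed to 768.5 to 890.1 FPKM in CK, 841.0 to 1027 with PB-020, 935.5 to 1094 with anti-PD-1 and 1016 to 1084 with the combination, with 1 of 8 raised by anti-PD-1 (Top2a) and 4 by the combination (Top2a, Cdk1, Ccnb1 and Pcna). Beside these marker calls, anti-PD-1 raised 4.18% and lowered 4.08% of all genes tested, and the combination raised 8.35% and lowered 9.60%. The part of the marker transcripts in the results below was not tested beyond leaving out both libraries, CK 3 and anti-PD-1 1.

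In CK tumors, the most abundant members per unit of length were Fdps (farnesyl pyrophosphate synthase) at 155.7 ± 12.7 FPKM (SD, n = 3), Msmo1 (sterol methyl oxidase) at 129.5 ± 16.9 and Scd2 (a stearoyl-CoA desaturase) at 100.5 ± 4.52. Hmgcs1, which makes HMG-CoA, followed at 92.9 ± 9.66, and Scd1, the sister desaturase, at 82.4 ± 11.98 FPKM. The lowest were Acss2, which makes acetyl-CoA from acetate, at 3.37 ± 0.19, and Hsd17b7, a reductase of keto-sterols, at 7.03 ± 0.31 FPKM. Acaca, whose product acetyl-CoA carboxylase commits acetyl-CoA to fatty acids, was at 9.95 ± 0.93 FPKM. Neighbours in this order lay within their SDs for Scd1 and Acly (81.9 ± 3.66), for Idi1 (56.8 ± 7.17) and Srebf2 (56.6 ± 1.31), and for Dhcr7 (20.2 ± 1.68), Mvk (20.2 ± 0.74) and Srebf1 (19.8 ± 0.97).

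Few of the 28 genes differed between treated and CK tumors. PB-020 alone called 0 members by edgeR's quasi-likelihood test with Benjamini-Hochberg adjustment over 13563 genes, where 0% of all genes were called, and 3 members (Hsd17b7, Scd1 and Me1, 10.7%) had an unadjusted p under 0.05 against 5.46% of all genes. DESeq2 also called 0 members for PB-020, where it called 6 of all 13563 genes (0.0442%). Anti-PD-1 lowered 2 members (7.14%, Hsd17b7 and Scd1), where 4.08% of all genes were lowered, and raised 0, where 4.18% were raised (DESeq2 raised 1, Dhcr7, and 6.69% of all genes). The combination lowered the same 2 genes, against 9.60% of all genes, and raised 1 (3.57%, Dhcr7), against 8.35%. With the rule of a fold over 1.5 and an unadjusted p under 0.05, 0 members were called in any of these comparisons, where that rule called 0.560% of all genes for PB-020, 7.18% for anti-PD-1 and 8.52% for the combination. By adjusted p in edgeR, the share of members called under the combination was thus below that of all genes in both directions. Under anti-PD-1 it was above for lowered genes and below for raised ones. With at most 2 members called in a direction, no conclusion is drawn from these shares. The 3 comparisons share the CK tumors.

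The median log2 change of the 28 members against CK was 0.02 for PB-020, 0.07 for anti-PD-1 and 0.06 for the combination, beside medians of 0.00 over all genes in each. Leaving out 1 library moved these medians between −0.12 and 0.07, 0.01 and 0.18, and −0.03 and 0.14. Members with a change above 0 numbered 15, 18 and 19 of 28, where 48.7%, 50.1% and 49.6% of all genes lay above 0. The cholesterol enzymes among them moved together from tumor to tumor, so these directions are not independent. The data bounded most changes within 1.5-fold, but fewer of those in the squalene and sterol genes. The 95% interval lay within 1.5-fold of no change for 26 of 28 members under PB-020, 21 under anti-PD-1 and 18 under the combination, and within 2-fold for all 28 in each. For the 9 genes from squalene to cholesterol, the intervals within 1.5-fold numbered 7, 4 and 3 in the same order.

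**Figure D1:**
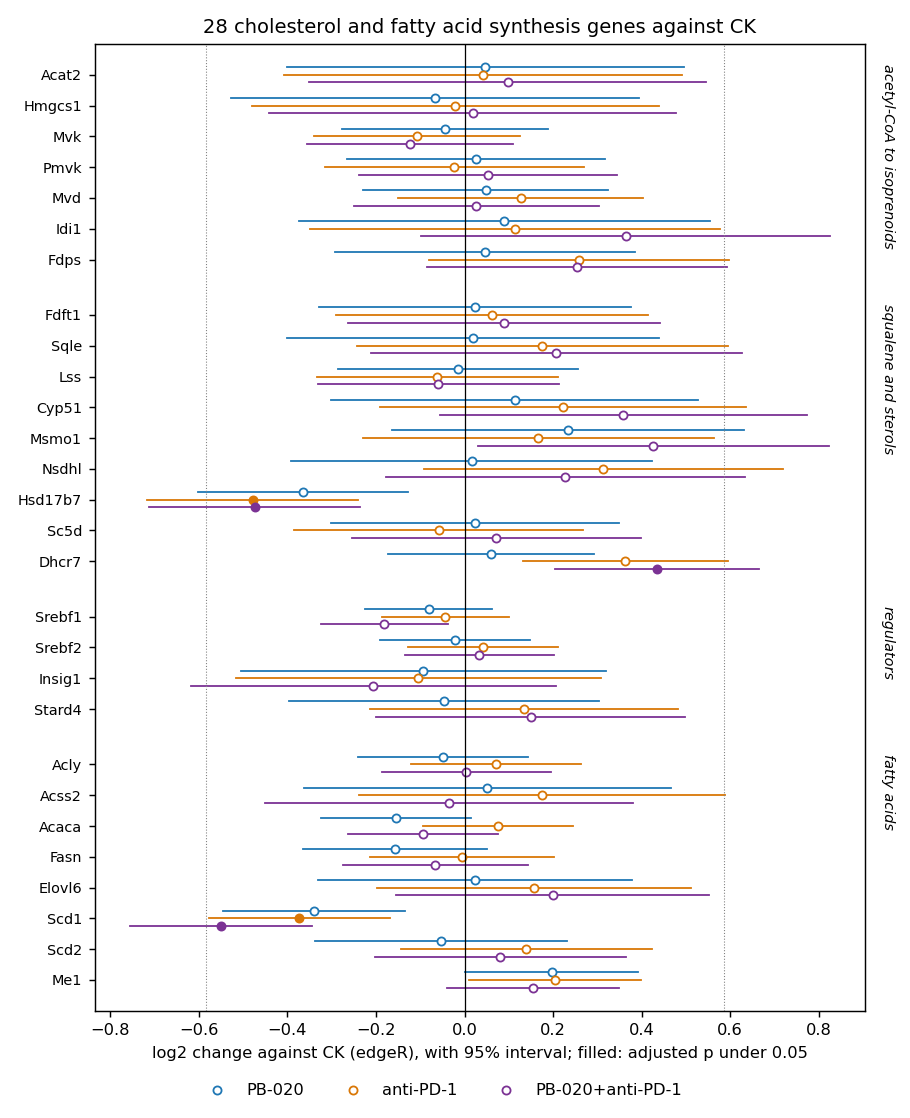
Log2 change of each of the 28 genes against CK, 1 color for each treated group, with 95% intervals from the edgeR fit, grouped by role; filled points have an adjusted p under 0.05, dotted lines mark 1.5-fold. Filled points are Hsd17b7 and Scd1 below 0 under the antibody and the combination, and Dhcr7 above 0 under the combination.

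The 7 genes from acetyl-CoA to the isoprenoids were not called in any comparison of the main fit. Their log2 changes lay between −0.07 and 0.09 for PB-020, between −0.11 and 0.26 for anti-PD-1 and between −0.12 and 0.36 for the combination. Idi1, which isomerizes isopentenyl pyrophosphate, was at 65.1, 52.3 and 53.1 FPKM in CK tumors 1 to 3, at 56.9, 68.0 and 54.0 with PB-020, at 40.9, 73.2 and 67.8 with anti-PD-1 and at 83.2, 66.7 and 66.8 with the combination. The combination tumors all lay above the CK tumors, by small gaps, and the anti-PD-1 tumors ran from the lowest value of all 12 to above the CK range. The log2 change of the combination was 0.36 ± 0.21 (SE), with an adjusted p of 0.246 by edgeR. Idi1 was called there with only the groups compared, where 11.4% of all genes were raised. It was also called without anti-PD-1 1, where 12.3% were raised.

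Fdps was at 167.5, 142.2 and 157.3 FPKM in CK, 153.5, 194.7 and 127.6 with PB-020, 160.6, 192.8 and 197.6 with anti-PD-1, and 207.0, 152.9 and 191.6 with the combination. Each treated group overlapped CK, and the change was 0.26 ± 0.15 for anti-PD-1 (adjusted p 0.309 by edgeR) and 0.25 ± 0.15 for the combination (0.271). Mvk, the mevalonate kinase, was at 21.0, 19.5 and 20.1 FPKM in CK and at 18.8, 17.8 and 18.5 with the combination, below all CK tumors. Under PB-020 it was at 19.7, 20.3 and 18.1, and under anti-PD-1 at 14.95, 20.7 and 19.9 FPKM. Its changes of −0.04, −0.11 and −0.12 were small next to their intervals, and the combination's had an adjusted p of 0.446 by edgeR. Acat2, Hmgcs1, Pmvk and Mvd, the thiolase, the HMG-CoA synthase and the last kinase and decarboxylase before isopentenyl pyrophosphate, had changes of at most 0.13 in size. Reads of Acat2 may be divided by RSEM with a near-identical relative, so its level is uncertain. Expected counts of Idi1 (2413.9 to 3048.21 in CK) and of Fdft1 (1681.61 to 2294.35 in CK) were also fractional, so their levels carry the same limit.

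Among the 9 genes from squalene to cholesterol, Hsd17b7 fell and Dhcr7 rose, while the other 7 were not called. Hsd17b7 lies on chr1:169949535-169969242 of GRCm38.p6, and its product reduces keto-sterols formed while lanosterol is demethylated and can also convert estrone to estradiol. It was at 7.38, 6.88 and 6.82 FPKM in CK, 5.11, 5.54 and 5.53 with PB-020, 4.38, 5.34 and 5.18 with anti-PD-1, and 5.91, 4.48 and 4.56 with the combination. All 9 treated tumors lay below all 3 CK tumors, and the treated groups overlapped one another. Against CK, the log2 change was −0.48 ± 0.11 (SE) for anti-PD-1 (adjusted p 0.0224 by edgeR) and −0.47 ± 0.11 for the combination (0.0126). For PB-020 it was −0.37 ± 0.11, with an unadjusted p of 0.00533 and an adjusted p of 0.874 by edgeR (95% interval −0.60 to −0.13).

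The Hsd17b7 change kept its size when libraries were left out, while its adjusted p lay close to the threshold. For anti-PD-1 the adjusted p by edgeR became 0.0641 without CK 1, 0.0782 without CK 2, 0.0605 without anti-PD-1 1 and 0.0588 without anti-PD-1 3, with log2 changes of −0.53 to −0.39, and for the combination it became 0.0665 (−0.41) without PB-020+anti-PD-1 2.

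Dhcr7 lies on chr7:143823167-143848410 and encodes the reductase of the last step of cholesterol synthesis, which also decides how much precursor is left for vitamin D. It was at 21.4, 18.3 and 21.0 FPKM in CK, 20.5, 22.5 and 19.7 with PB-020, 27.2, 22.7 and 28.3 with anti-PD-1, and 28.2, 23.5 and 30.7 with the combination. The 6 tumors that received the antibody lay above the 6 that did not, without overlap, and tumor 2 was the lowest of both antibody groups. The change was 0.44 ± 0.11 for the combination (adjusted p 0.0157 by edgeR), 0.36 ± 0.11 for anti-PD-1 (0.0523), and PB-020 gave 0.06 ± 0.11 (0.968). The combination's adjusted p by edgeR was 0.0816 without CK 2 (0.36), 0.0598 without PB-020+anti-PD-1 1 (0.42) and 0.0582 without PB-020+anti-PD-1 3 (0.35). For anti-PD-1 it passed the threshold without anti-PD-1 2 (0.0216) and without PB-020+anti-PD-1 2 (0.0483).

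**Figure D2:**
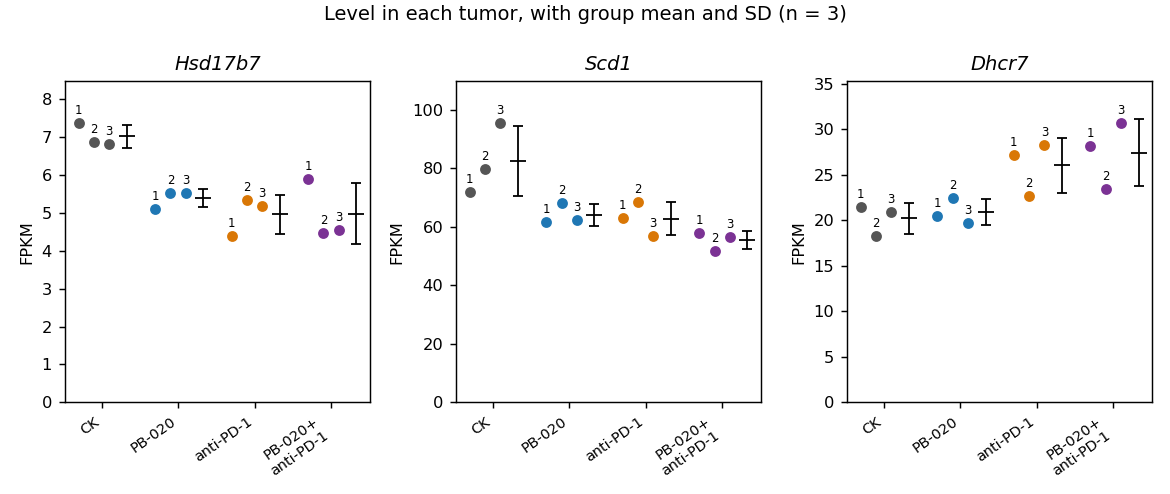
FPKM of Hsd17b7, Scd1 and Dhcr7 in each tumor (points, numbered by replicate) with the group mean and SD beside them, n = 3. The 9 treated tumors sit below the 3 CK tumors for Hsd17b7 and Scd1, and the 6 antibody-treated tumors sit above the other 6 for Dhcr7.

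Msmo1, whose product removes methyl groups from sterols, was at 140.1, 110.1 and 138.4 FPKM in CK, 143.1, 165.7 and 141.7 with PB-020, 103.3, 155.8 and 170.3 with anti-PD-1, and 197.5, 165.3 and 152.9 with the combination. The PB-020 and the combination tumors lay above all CK tumors, while anti-PD-1 1 was the lowest of the 12. The combination's change of 0.43 ± 0.18 had an adjusted p of 0.123 by edgeR, which fell to 0.0164 when the library anti-PD-1 1 was left out. Fdft1, Sqle, Lss, Cyp51, Nsdhl and Sc5d, which make squalene, oxidize it, close the rings and trim the sterol, changed by −0.06 to 0.36 with no call. Cyp51, the lanosterol demethylase, had the largest of these, 0.36 ± 0.19 in the combination (adjusted p 0.202 by edgeR).

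Promoter windows from RefSeq on GRCm38.p6, 250 bases before to 50 after an annotated start, were matched for 22 of the 28 genes, and none was matched for Fdps, Fdft1, Sqle, Stard4, Scd1 or Scd2. The box CCAAT, bound by NF-Y, was found on either strand in 19 of the 22 (86.4%) against 41.1% of all 27025 genes with a window, and the GC box GGGCGG in 18 (81.8%) against 38.2%. The E-box CACGTG was found in 4 (18.2%; Dhcr7, Hsd17b7, Insig1 and Sc5d) against 8.09%, and the core of the sterol element, TCACNCCAC, in 1 (4.55%, Hmgcs1) against 1.44%. None of the 4 strings contains another. The sequences before the first annotated start are given for the called genes Hsd17b7 and Dhcr7 and for Hmgcs1, the holder of the sterol core, with the 4 motifs on either strand in capitals. They read 5′ to 3′ on the strand of the gene and cover chr1:169969243-169969455 (minus strand), chr7:143822917-143823166 (plus) and chr13:119690101-119690350 (plus).
Hsd17b7: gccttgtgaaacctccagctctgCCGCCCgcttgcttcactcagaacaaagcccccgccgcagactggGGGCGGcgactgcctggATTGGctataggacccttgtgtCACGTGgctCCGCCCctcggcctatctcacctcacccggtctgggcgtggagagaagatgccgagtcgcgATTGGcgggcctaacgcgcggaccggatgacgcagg
Dhcr7: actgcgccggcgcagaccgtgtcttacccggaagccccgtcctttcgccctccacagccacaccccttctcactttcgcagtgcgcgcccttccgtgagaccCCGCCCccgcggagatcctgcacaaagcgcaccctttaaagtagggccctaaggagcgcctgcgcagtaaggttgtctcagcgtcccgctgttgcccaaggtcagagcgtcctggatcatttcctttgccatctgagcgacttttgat
Hmgcs1: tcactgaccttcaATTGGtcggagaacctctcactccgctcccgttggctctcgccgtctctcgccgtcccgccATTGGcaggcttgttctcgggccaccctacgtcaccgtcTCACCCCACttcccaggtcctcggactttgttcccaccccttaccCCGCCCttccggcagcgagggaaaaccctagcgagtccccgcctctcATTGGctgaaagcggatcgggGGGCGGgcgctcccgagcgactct
The Hsd17b7 stretch of 213 bases held 3 GC boxes, 2 NF-Y boxes and an E-box. The stretch before the first Dhcr7 start held 1 GC box only. The E-box and NF-Y box of Dhcr7 lay elsewhere in the sequence searched for the gene, outside the stretch printed. The Hmgcs1 stretch held 3 NF-Y boxes and 2 GC boxes beside the sterol core. GC boxes were thus present before the gene that fell, the gene that rose and the gene with no call, and no match here says only that these letters are not in the window.

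None of the 4 genes for regulators and sterol transfer was called. Srebf1 was at 18.7, 20.3 and 20.5 FPKM in CK, 19.1, 17.7 and 18.6 with PB-020, 19.8, 18.6 and 18.8 with anti-PD-1, and 16.5, 16.4 and 18.9 with the combination. Tumors 1 and 2 of the combination were the lowest of the 12, and tumor 3 overlapped CK. The combination's change was −0.18 ± 0.07 (adjusted p 0.0744 by edgeR), and it was called without PB-020+anti-PD-1 3 (−0.24, adjusted p 0.0302). Srebf2 changed by −0.02, 0.04 and 0.03 in the order PB-020, anti-PD-1 and combination, each with an SE of 0.08.

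Insig1, the sterol-sensing retainer of the SREBPs, was at 71.6, 63.3 and 63.8 FPKM in CK, 60.9, 66.8 and 56.0 with PB-020, 43.1, 79.7 and 59.4 with anti-PD-1, and 63.2, 52.1 and 54.9 with the combination. The combination tumors lay just below the CK tumors, and the anti-PD-1 group held both the lowest and the highest of all 12. Its change in the combination was −0.21 ± 0.19 (adjusted p 0.465 by edgeR). Stard4, a carrier of sterol between membranes, was at 19.8, 16.2 and 16.5 FPKM in CK, 16.3, 19.1 and 15.3 with PB-020, 16.0, 22.2 and 20.02 with anti-PD-1, and 24.2, 16.1 and 17.7 with the combination. All groups overlapped, and the changes were −0.05, 0.13 and 0.15, each with an SE of 0.16.

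Of the 8 genes for fatty acid synthesis and supply, Scd1 alone was called. Scd1 (chr19:44394450-44407709) encodes the desaturase that makes oleate and is known as a target of SREBP-1 and LXR. It was at 71.9, 79.8 and 95.4 FPKM in CK, 61.5, 68.1 and 62.3 with PB-020, 63.1, 68.3 and 56.9 with anti-PD-1, and 57.9, 51.8 and 56.6 with the combination. All 9 treated tumors lay below the 3 CK tumors, and the combination held 2 of the 3 lowest values, overlapping only with anti-PD-1 3. The change was −0.37 ± 0.10 for anti-PD-1 (adjusted p 0.0324 by edgeR) and −0.55 ± 0.10 for the combination (0.00376), a fold of 0.68. For PB-020 it was −0.34 ± 0.10, with an unadjusted p of 0.0032 and an adjusted p of 0.874 by edgeR.

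Scd1 is also abundant in adipocytes, and its highest level was in CK 3, the tumor with adipocyte transcripts. Without CK 3 the change was −0.24 for PB-020, −0.27 for anti-PD-1 (adjusted p 0.0994 by edgeR) and −0.44 for the combination (0.0131). The call for anti-PD-1 was also lost without CK 2 (0.0917), anti-PD-1 1 (0.0614) or anti-PD-1 3 (0.118, by edgeR), while that for the combination held without any 1 of the 12 libraries. With both CK 3 and anti-PD-1 1 left out, the combination's change was −0.44 (adjusted p 0.00401 by edgeR). Scd2, the desaturase best known from brain, changed by −0.05, 0.14 and 0.08 with no call. The ratio of Scd1 to Scd2 FPKM was 0.70, 0.78 and 1.0015 in CK, 0.70, 0.57 and 0.79 with PB-020, 0.59, 0.61 and 0.52 with anti-PD-1, and 0.51, 0.59 and 0.50 with the combination. The 6 antibody-treated tumors lay below the 3 CK tumors in this ratio, and the PB-020 tumors overlapped CK. RSEM divides reads that genes share. The lowest and highest expected counts of Scd2 in each group were whole, and those of Scd1 were whole except 4019.99. Little division of reads thus showed for these desaturases, and wrong assignment between them was not tested.

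The remaining fatty acid genes were not called. Me1, the malic enzyme that supplies NADPH, was at 14.2, 13.8 and 14.0 FPKM in CK, 14.0, 16.9 and 16.6 with PB-020, 17.9, 14.5 and 15.7 with anti-PD-1, and 16.4, 15.1 and 14.9 with the combination. The antibody-treated tumors lay above CK and PB-020 1 lay within it. Its changes of 0.20 ± 0.09, 0.20 ± 0.09 and 0.15 ± 0.09 had adjusted p values of 0.874, 0.168 and 0.248 by edgeR. Acaca was at 9.45, 9.38 and 11.02 FPKM in CK, 9.37, 8.85 and 8.26 with PB-020, 10.8, 10.4 and 9.78 with anti-PD-1, and 9.06, 8.52 and 9.94 with the combination. PB-020 tumors lay just below all CK tumors, anti-PD-1 tumors within the CK range. Acaca changed by −0.16 ± 0.08 with PB-020 (adjusted p 0.874 by edgeR). Fasn, the fatty acid synthase, changed by −0.16, 0.00 and −0.07, and Acly, which cuts citrate into acetyl-CoA, by −0.05, 0.07 and 0.00, each with an SE of at most 0.10. Elovl6, an elongase, and Acss2 changed by −0.03 to 0.20 with SEs of 0.16 to 0.19, and they were the widest of these genes within groups (SD of log2 CPM 0.23 and 0.26).

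Whether PB-020 moved these genes was also asked with 6 tumors on each side, averaging over the antibody. No member was called, where 0% of all genes were called, and 4 members (14.3%) had an unadjusted p under 0.05 against 10.9% of all genes. These were Scd1 (−0.26 ± 0.07), Hsd17b7 (−0.18 ± 0.08), Acaca (−0.16 ± 0.06) and Srebf1 (−0.11 ± 0.05), with adjusted p values of 0.309 to 0.425 by edgeR. DESeq2 called 1 of them, Scd1, with an adjusted p of 0.0438, and 49 of all 13563 genes (0.361%). The intervals of all 28 members lay within 1.5-fold.

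With 6 tumors on each side, the antibody averaged over PB-020 raised 1 member (3.57%, against 11.8% of all genes) and lowered 2 (7.14%, against 12.3%). Dhcr7 rose by 0.37 ± 0.08 on the log2 scale (adjusted p 0.00469 by edgeR), Hsd17b7 changed by −0.29 ± 0.08 (0.0175) and Scd1 by −0.29 ± 0.07 (0.00883). These 3 calls held when any 1 of the 12 libraries was left out. Members raised numbered 4 without PB-020 2 (Fdps, Nsdhl and Scd2 added), where 11.2% of all genes were raised. They numbered 3 without anti-PD-1 1 (Idi1 and Msmo1 added), where 10.6% of all genes were raised. Both averaged comparisons and those with CK use the same tumors.

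The combination was set against each single agent. Against anti-PD-1, 0 members and 0% of all genes were called by edgeR, and 1 member (3.57%), Acaca at −0.17 ± 0.08, had an unadjusted p under 0.05 against 7.26% of all genes. DESeq2 called 0 members there, and 1 of all 13563 genes (0.00737%). Against PB-020, 0 members were called where 3.35% of all genes were, and 2 members (7.14%) had an unadjusted p under 0.05 against 22.4% of all genes. They were Dhcr7, at 0.38 ± 0.11 (adjusted p 0.0692 by edgeR, 0.0234 by DESeq2), and Scd1, at −0.21 ± 0.10 (0.214 by edgeR). The interaction, which is the combination minus both single effects on the log2 scale, called 0 members and 0% of all genes, by edgeR and by DESeq2. Only Hsd17b7 had an unadjusted p under 0.05 in it (3.57% of members, 2.29% of all genes), at 0.37 ± 0.16 with an adjusted p of 1 by edgeR. Its combination level was thus not as low as the sum of the single effects, −0.37 and −0.48, but this difference was not called. Intervals of the interaction lay within 1.5-fold for 18 of 28 members.

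Within groups, the cholesterol enzymes were high or low together from tumor to tumor. Of the 16 enzymes from Acat2 to Dhcr7, CK 1 had the highest level of its group for 16, where 32.0% of all genes were highest in that tumor. PB-020 2 was highest for 15 of 16 (36.6% of all genes) and PB-020+anti-PD-1 1 for 13 (32.3%). At the other end, anti-PD-1 1 was the lowest of its group for 15 of 16 (39.8% of all genes), PB-020 3 for 15 (33.8%) and PB-020+anti-PD-1 2 for 13 (30.1%). These tumors are compared only within their groups, and neighbouring enzymes are not independent of one another.

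The median within-group SD of log2 CPM was 0.22 over the 16 enzymes, 0.13 over the 8 fatty acid genes and 0.13 over all 13563 genes. The widest members were Hmgcs1 and Idi1 (SD 0.28 each), and the narrowest was Srebf1 (0.07). The tumor anti-PD-1 1 was 0.31 below its group mean when averaged over the enzymes and 0.04 below it over the fatty acid genes. It is the tumor with the muscle transcripts and the highest summed macrophage, T cell and fibroblast levels (1339, 60.3 and 977.0 FPKM). The summed proliferation markers were highest of their group in CK 1 (890.1 FPKM), PB-020 2 (1027) and PB-020+anti-PD-1 1 (1084), and lowest in PB-020 3 (841.0) and anti-PD-1 1 (935.5), but PB-020+anti-PD-1 2 (1051) was not the lowest of its group. The part of host cells and of proliferation in this spread was not tested. Dhcr7 did not follow the other enzymes in anti-PD-1 1, where it lay above its group mean.

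**Figure D3:**
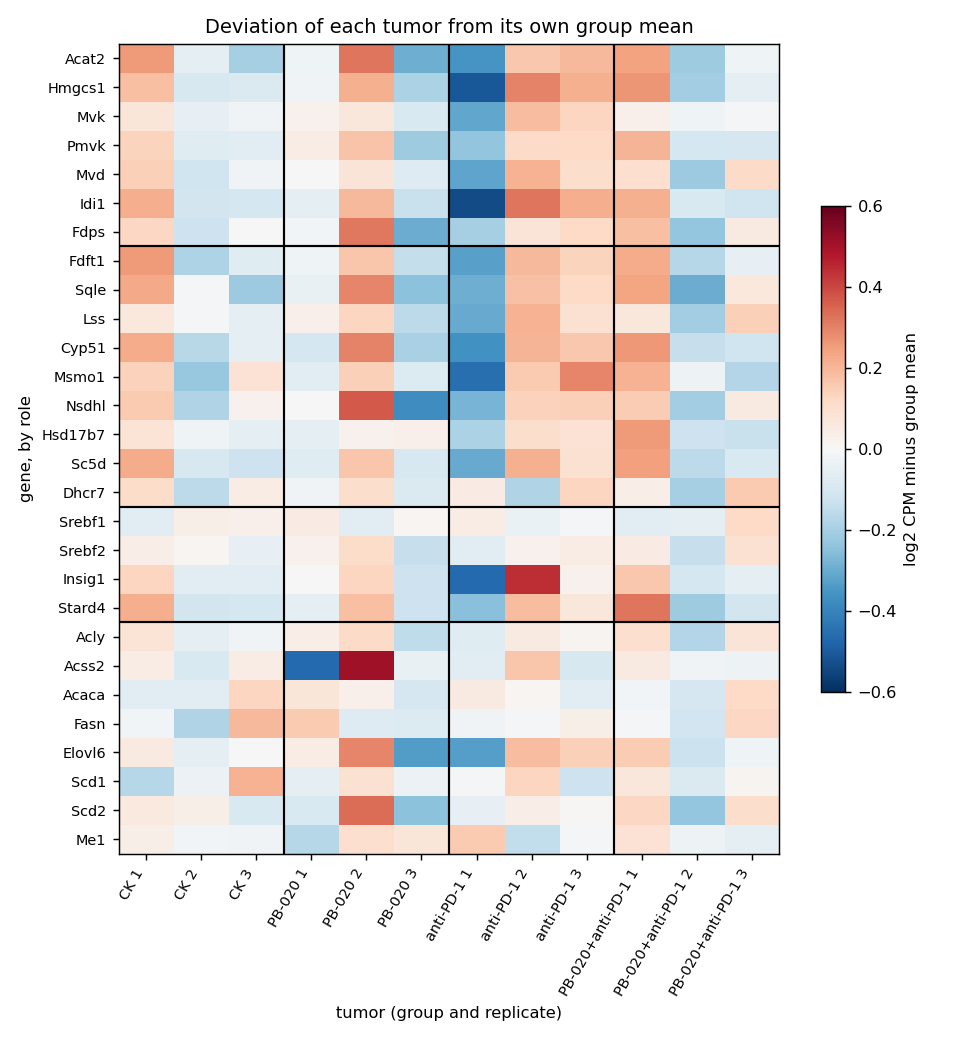
Log2 CPM of each of the 28 genes (rows, by role) in each tumor (columns), minus the mean of the tumor's own group; red is above and blue below. The enzymes in the upper 2 blocks are red together in CK 1, PB-020 2 and PB-020+anti-PD-1 1 and blue together in PB-020 3, anti-PD-1 1 and PB-020+anti-PD-1 2.

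Other genes around the pathway were read from lists. Of 18 tested genes of cholesterol handling, PB-020 changed 0 (0 with an unadjusted p under 0.05 by edgeR), anti-PD-1 raised 1 (5.56%, against 4.18% of all genes) and the combination raised 2 (11.1%, against 8.35%) and lowered 1 (5.56%, against 9.60%). Soat1, which esterifies cholesterol for storage, was at 10.7, 12.4 and 11.8 FPKM in CK, 17.6, 13.6 and 14.7 with anti-PD-1 and 16.4, 14.2 and 14.9 with the combination, above CK in all 6. It rose by 0.42 ± 0.10 and 0.40 ± 0.10 (adjusted p 0.0235 and 0.0151 by edgeR). In the combination, the SREBP-cleaving proteases moved apart, with Mbtps2 raised by 0.33 ± 0.08 (0.0197) and Mbtps1 lowered (−0.29 ± 0.08, adjusted p 0.0212 by edgeR). The averaged antibody comparison also raised Ebp, a sterol isomerase (0.33 ± 0.09, adjusted p 0.0178 by edgeR), and lowered Acat1, a mitochondrial thiolase (−0.24 ± 0.08, 0.0371). The Ebp call was lost without 3 of the 12 libraries, each time with an adjusted p of at most 0.051, and the Acat1 call without 9 (0.0509 to 0.0879 by edgeR).

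Of 21 tested genes of fatty acid handling, PB-020 changed 0 (again 0 unadjusted by edgeR), anti-PD-1 lowered 1 (4.76%, against 4.08% of all genes) and the combination lowered 2 (9.52%, against 9.60%) and raised 1 (4.76%, against 8.35%). Gpam, which starts glycerolipid synthesis, was at 7.66, 8.0 and 6.96 FPKM in CK, 5.92, 6.0 and 5.74 with anti-PD-1 and 5.25, 5.43 and 5.57 with the combination, without overlap. Its changes were −0.31 ± 0.08 and −0.42 ± 0.08 (adjusted p 0.0373 and 0.00593 by edgeR). Cpt1a, which admits fatty acids to mitochondria, was lowered in the combination (−0.45 ± 0.11, adjusted p 0.0139 by edgeR), and Acsl4, which activates long polyunsaturated fatty acids, was raised (0.36 ± 0.09, adjusted p 0.0198).

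Of the 7 LXR targets and sterol efflux genes, 1 rose and 1 fell with the antibody and with the combination, and PB-020 changed 0 (0 unadjusted by edgeR). A single gene is 14.3% of this list, beside the same shares of all genes. Mylip, which marks the LDL receptor for degradation, was at 11.7, 14.4 and 13.6 FPKM in CK, 8.69, 9.04 and 5.63 with anti-PD-1 and 5.04, 7.05 and 6.88 with the combination, changing by −0.75 ± 0.18 and −1.05 ± 0.18 (adjusted p 0.0321 and 0.00499 by edgeR). Nr1h3, the receptor LXR-alpha, was low everywhere, at 0.26, 0.69 and 0.84 FPKM in CK, 2.46, 0.99 and 1.48 with anti-PD-1 and 1.41, 1.59 and 1.55 with the combination, a rise of 1.53 ± 0.40 and 1.43 ± 0.40 (0.0343 and 0.0273 by edgeR). Its highest value was in anti-PD-1 1, the tumor with the highest macrophage sum, and the part of macrophages was not tested. Of 4 insulin and IGF receptors and substrates, PB-020 changed 0. Irs1 alone (−0.22) had an unadjusted p under 0.05 by edgeR, as did 5.46% of all genes. Irs1, the docking protein below both receptors, was lowered by the antibody (−0.39 ± 0.07, adjusted p 0.00998 by edgeR) and by the combination (−0.52 ± 0.07, 0.00182). It alone is 25% of this list, where 4.08% and 9.60% of all genes were lowered. Against PB-020, the combination also lowered Irs1 (−0.305 ± 0.07, adjusted p 0.0419 by edgeR), where 2.11% of all genes were lowered. That call was lost without 10 of the 12 libraries. Igf1r, the target of PB-020, stayed between 9.53 and 11.9 FPKM in all 12 tumors and changed by −0.06, −0.02 and −0.13, each with an SE of 0.06. In the combination against CK, Gpam, Mylip and Irs1 kept their call without any 1 of the 12 libraries. The other 6 calls of that comparison were each lost without at least 1, most often PB-020+anti-PD-1 1 (6 lost) or CK 2 (5 lost). For anti-PD-1, all 5 calls were lost without CK 2 and 4 without anti-PD-1 1, namely Soat1, Gpam, Mylip and Nr1h3 (adjusted p 0.0654, 0.0659, 0.0627 and 0.1 by edgeR).

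**Figure D4:**
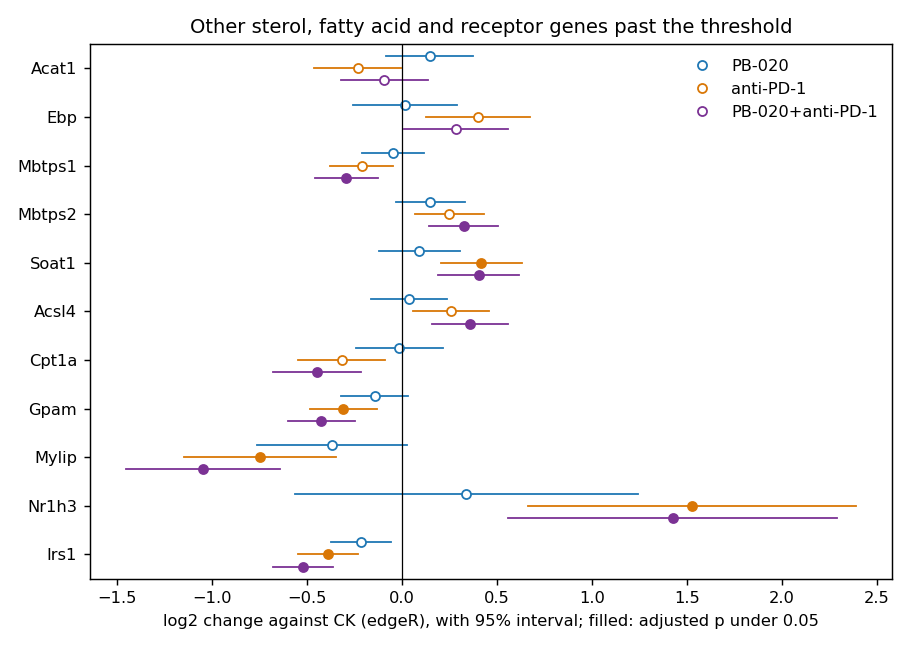
Log2 change against CK, with 95% intervals from the edgeR fit, of the 11 other sterol, fatty acid, LXR and receptor genes past an adjusted p of 0.05 in a comparison with CK or an averaged one; filled points are past it in the comparison shown. Gpam, Mylip and Irs1 are filled below 0 under the antibody and the combination, and Soat1 and Nr1h3 above 0.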

How the data were processed

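RNA of 12 MC38 tumors was sequenced by the authors as pairs of 150 bases, and reads were assigned to genes with Bowtie2 and RSEM; the processing notes also name HISAT and the build GRCm38.p6. The annotation was not given in the sources used here. The deposited expected counts are RSEM estimates, not normalized (91.0% of values whole), the deposited FPKM values are per length and library by the authors, and the deposited TPM values were not used.

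Expected counts were rounded and fitted in R 4.3.3 with edgeR 4.0.16 (filterByExpr, minimum count 10, TMM, robust quasi-likelihood, 4 group means, 12 libraries). Contrasts numbered 8, tests were two-sided and adjusted over 13563 genes. Changes are log2; SEs come from the fit. On counts simulated for the combination against CK over 13474 genes, the fit called 45 of 67 genes changed 1.5-fold, 58 of 67 at 2-fold, 58 of 66 at 3-fold and 10 of 13274 unchanged. The simulated counts were independent between genes, with few genes changed and no tumor set apart, which differs from the real libraries. Members were grouped by role; a member is given in all samples if it was called, or had 1 of the 3 smallest unadjusted p values of its role against CK. Other genes are named if called. Members and lists were chosen with earlier results of these data known. Alternatives were DESeq2 1.42.0, limma 3.58.1 on log2(FPKM + 1) or + 0.1, other filters and scalings, a replicate block, only the groups compared, and leaving out libraries. Same-numbered tumors did not deviate together (correlations −0.21 to 0.29; 2 of 18 pairs over 0.1), so the numbers were not taken as pairs. Gene positions are from RefSeq, matched for 28 of 28 members.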

Additional observations from a re-analysis of the deposited data

How the results depend on the processing

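The following alternatives moved a count of called members; in the other settings run the counts stayed as given, and no called value changed sign. With 1 library left out, the median change of the members turned sign for PB-020 (−0.12 to 0.07) and the combination (−0.03 to 0.14). For anti-PD-1 against CK, 1 member was raised with DESeq2, where 6.69% of all genes were. The members lowered numbered 1 with the replicate block, where 3.1% of all genes were lowered. They numbered 0 with only the groups compared, where 1 gene was raised and 2 lowered of 13255. They were also 0 without CK 3 and anti-PD-1 1, a choice made after seeing the data. That setting raised 235 and lowered 224 of 13620 genes (1.73% and 1.64%), against 567 and 553 of 13563. For the combination against CK, 2 members were raised with DESeq2, where 10.4% of all genes were. With only the groups compared 3 were raised (11.4% of all genes), and without both libraries 2 (11%). For the combination against PB-020, 1 member was raised under each of the same settings, beside 3.95%, 6.14% and 6.03% of all genes. PB-020 averaged over the antibody lowered 1 with DESeq2 (0.0295% of all genes). The antibody averaged over PB-020 raised 2 without both libraries (11.3% of all genes). Leaving out 1 library at a time gave 0 to 2 lowered for anti-PD-1 (0.523% to 7.03% of all genes) and 0 to 1 raised (0.473% to 6.81%). For the combination it gave 1 to 3 lowered (3.89% to 12.2%) and 0 to 3 raised (2.39% to 12.3%). The combination against PB-020 gave 0 to 1 raised (0 to 4.41%), and the averaged antibody 1 to 4 raised (7.3% to 13.4%). The cause was not tested. Fewer tumors leave fewer residual degrees of freedom by construction. With the replicate block, Scd1 for anti-PD-1 had an adjusted p of 0.0529 by edgeR. The median SE of a member against CK was 0.14. A call needed a change well above its SE, so changes of about that size or smaller were not detectable with 3 tumors a group. Larger changes also went uncalled, such as −0.37 for Hsd17b7 with PB-020, so a missing call does not place a change below 0.14.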
